A study of Mus musculus with 10 samples.

Results

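The SLC25 genes encode the mitochondrial carriers, proteins of the inner mitochondrial membrane that exchange nucleotides, phosphate, amino acids, organic acids and cofactors between the matrix and the cytosol. They were taken here as every protein-coding Ensembl gene whose GRCm38 symbol starts with Slc25a and a number, which gave 47 of the 54838 gene identifiers counted in each library. Of these 47, 40 passed the expression filter of more than 1 CPM (counts relative to each library's total) in at least 2 libraries and were tested among 16806 genes. The question put to them was how their ribosome-bound mRNA differed between dorsal and ventral Drd2-expressing hippocampal cells.

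The material was hippocampus of C57BL/6 male mice of about 10 weeks with the genotype Drd2-Cre;Eef1a1LSL.eGFPL10a/+, in which Cre removes a stop cassette and lets Drd2-Cre cells make the ribosomal protein L10a fused to eGFP. Translating ribosome affinity purification (TRAP) with antibodies to the tag recovered the mRNA on these ribosomes. The 5 Dorsal libraries came from the dorsal end of the hippocampus and the 5 Ventral libraries from its longer ventral part after the ventral subiculum had been cut away, each from tissue pooled over 5 mice. The hippocampi of 25 mice were divided, so both groups draw on the same animals, but which Dorsal and Ventral pools share mice is not stated, and the groups were compared unpaired. Each replicate stands for a pool of mice, and all 10 libraries carry the same transgenes. Drd2-Cre drives the tag chiefly in hilar mossy cells, the excitatory neurons of the dentate hilus, and also in other cells such as scattered interneurons, so that the label of mossy cells in the sample descriptions stands for a fraction enriched in them.

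Most carriers share a fold of repeated membrane-spanning helices and swap a substrate on one side of the membrane for another on the other side. The adenine nucleotide carriers export ATP made in the matrix for incoming ADP, the phosphate carrier brings in the phosphate for its synthesis, and the aspartate-glutamate and oxoglutarate carriers are the membrane steps of the malate-aspartate shuttle, which moves reducing equivalents from glycolysis into mitochondria. Neurons rely on these carriers to supply ATP to synapses and to return glutamate and its carbon to metabolism.

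The depth of the Dorsal libraries was 11138676 to 16779821 counts on genes and that of the Ventral ones 11618625 to 20594364, a difference within the spread (two-sided exact permutation test, p = 0.421), and 3 counts correspond to 0.146 to 0.269 CPM. This floor covers counting error only, since the RNA was amplified and the reads carry no molecular identifiers. The groups differed in other respects: 21.8 to 33.9% of read pairs fell on no gene in Dorsal libraries against 11.6 to 19.3% in Ventral, the summed level of 10 astrocyte markers was 2000 to 2290 against 869 to 1470 CPM, and that of 8 oligodendrocyte markers 2600 to 3100 against 994 to 1850 CPM. The 9 mossy cell markers summed to 1870 to 2130 CPM in the Dorsal and 1920 to 2230 CPM in the Ventral libraries. Calb2 (65.2 against 616 CPM) and Satb1 (270.0 against 450.2 CPM) were higher in Ventral. Gria2 (1143 against 650.7 CPM), Gria3 and Ociad2 (177.3 against 146.8 CPM, edgeR adjusted p = 0.0448) were higher in Dorsal. Drd2 (28.1 against 20.7 CPM, adjusted p = 0.0517), Calcrl and Nmb did not pass, and Csf2rb2 was below the filter. The sums join genes of opposite direction, so their closeness does not show an equal share of mossy cells. The 8 interneuron markers, led by Gad2, were also abundant, at 3270 to 4360 against 3950 to 5190 CPM. All 8 had a fold change below 0 (dorsal over ventral), as had 50.4% of all tested genes. An adjusted p below 0.05 in edgeR's test held for 5 of them (62.5%, against 14.6% of all tested genes higher in Ventral). Of these, Sst (-0.66), Pvalb (-0.63) and Lhx6 (-0.76) were ventral-enriched (37.5% of the 8, against 9.85%). This was the direction of Slc25a4 and Slc25a3, and the part of interneurons in those differences was not tested. In such bulk material, fewer cells of a type and less RNA per cell cannot be told apart.

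To show the DNA in front of carriers that the results below turn on, the bases upstream of Slc25a3, of the pyrimidine nucleotide carriers Slc25a33 and Slc25a36, and of Slc25a23 are printed here. They come from RefSeq (GRCm38.p6), each read 5′ to 3′ on the minus strand, on which all of these genes lie, and stop where the GENCODE annotation places the first exon. Capitals mark matches on either strand to GGGCGG (the GC box), CCGGAAG (a core bound by ETS factors such as GABP), or CCAAT (the CCAAT box).
Slc25a3, chr10:91124060-91124217: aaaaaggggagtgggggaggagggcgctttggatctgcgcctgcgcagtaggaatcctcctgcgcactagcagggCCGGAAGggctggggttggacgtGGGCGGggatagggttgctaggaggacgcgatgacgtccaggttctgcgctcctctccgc
Slc25a33, chr4:149774278-149774517: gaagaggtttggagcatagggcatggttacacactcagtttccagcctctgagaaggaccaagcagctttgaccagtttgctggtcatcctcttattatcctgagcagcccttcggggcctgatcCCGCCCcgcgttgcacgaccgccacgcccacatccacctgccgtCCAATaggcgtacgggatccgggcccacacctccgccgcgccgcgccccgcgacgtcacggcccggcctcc
Slc25a36, chr9:97111158-97111291: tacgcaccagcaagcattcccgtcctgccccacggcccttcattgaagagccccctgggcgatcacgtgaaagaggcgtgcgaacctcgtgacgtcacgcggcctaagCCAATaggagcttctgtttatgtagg
Slc25a23, chr17:57059864-57060113: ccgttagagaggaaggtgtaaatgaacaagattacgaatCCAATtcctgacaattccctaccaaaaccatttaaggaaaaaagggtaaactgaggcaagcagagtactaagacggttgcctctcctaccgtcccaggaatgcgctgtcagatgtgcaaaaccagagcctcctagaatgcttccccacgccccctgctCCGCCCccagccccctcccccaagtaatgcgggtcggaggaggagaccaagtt

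The same search over the 250 bases before the RefSeq start of every gene found GGGCGG in 32.7%, CCAAT in 33.8% and CCGGAAG in 6.91% of 32851 promoters. Among the 46 promoters of the 36 carriers that matched this table, GGGCGG was present in 32, CCAAT in 21 and CCGGAAG in 6. In the first listed window of each gene, Slc25a3 and Slc25a4 each had 1 CCGGAAG match, and Slc25a33, Slc25a36, Slc25a23 and Slc25a25 had 0. Of these genes, Slc25a4 had 0 GGGCGG matches and each other gene 1, and that of Slc25a36 lay outside its printed bases. Slc25a23 has 2 listed promoters and Slc25a25 3, of which these gene counts cover the first. No base of the Slc25a25 window and 28 of the Slc25a4 window lay upstream of every exon that GENCODE places there. TATAAA (the TATA box) was found in 2 of the 46, against 12.4% of all promoters, and the palindrome bound by NRF1 in 0, against 0.782%. A match describes the letters in the window and not a bound site.

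The carriers spanned several orders of magnitude, and Slc25a4, the adenine nucleotide carrier of heart, muscle and brain, stood far above the rest. Divided by exonic length, its level was 711 CPM per kb in Dorsal and 1141 CPM per kb in Ventral samples. It made up 51.9 to 58.6% of the summed per-kb level of the family in Dorsal and 60.0 to 70.1% in Ventral libraries. In CPM it was also the highest, at 1673 in the Dorsal and 2685 in the Ventral mean. Exonic length joins all annotated exons of a gene and can exceed that of the mRNA made, so per-kb ranks and shares depend on the annotation. The next carriers were Slc25a46, an outer membrane protein of mitochondrial dynamics, at 74.8 and 73.7 CPM per kb, Slc25a5 at 60.3 and 88.1, Slc25a3 at 55.5 and 88.7, Slc25a23 at 66.2 and 48.7 and the oxoglutarate carrier Slc25a11 at 35.7 and 48.9 CPM per kb. Among Slc25a46, Slc25a5, Slc25a3 and Slc25a23 the order differed between the groups. The lowest of those tested were Slc25a34 in Dorsal libraries (0.150 CPM per kb, 0.263 in Ventral) and Slc25a47 in Ventral libraries (0.139 CPM per kb, 0.483 in Dorsal), both of uncertain substrate.

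**Figure D1:**
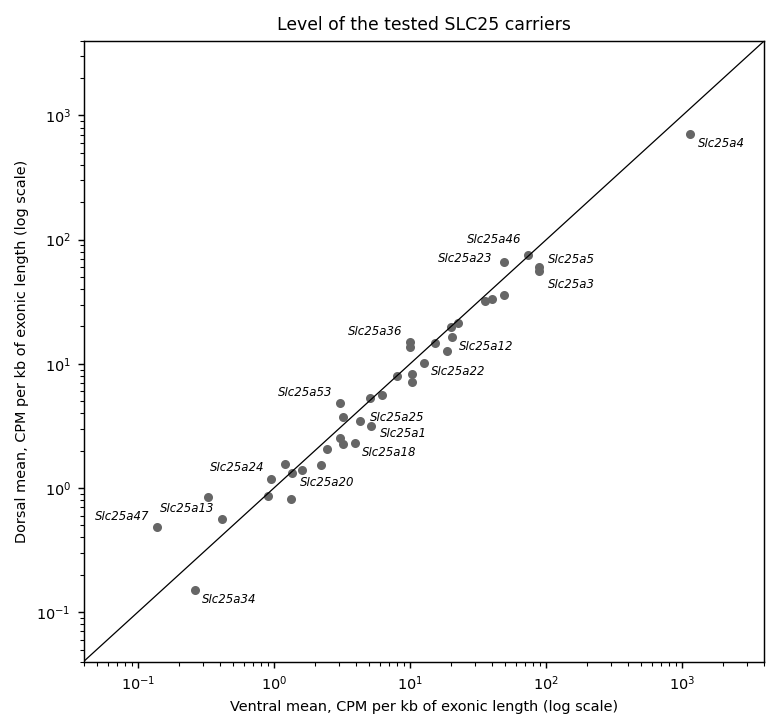
Mean level of each of the 40 tested carriers in the 5 Ventral (horizontal) and 5 Dorsal libraries (vertical), in CPM per kb of exonic length, both axes logarithmic; the line marks equal levels. Slc25a4 lies alone at the top right (1141 CPM per kb in Ventral and 711 in Dorsal), and points below the line were lower in Dorsal libraries.

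The 7 carriers below the filter were close to 0. Slc25a31, the testis form of the adenine nucleotide carrier, had 1 count over all 10 libraries and Slc25a41, an ATP-Mg/phosphate carrier, also 1. The ornithine carrier Slc25a2, Slc25a43, Slc25a48 and Slc25a54 had at most 5 counts in any library. Slc25a21, the oxoadipate carrier, had 11 counts in Ventral replicate 2 and at most 1 in each other library. With fewer counts than this depth resolves, no difference between Dorsal and Ventral could be detected for them.

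The rule for an enriched carrier was an adjusted p below 0.05 (edgeR's quasi-likelihood test, Benjamini-Hochberg adjustment over all tested genes) and a log2 ratio of mean CPM plus 1 above 0.58 in size, the fold threshold, which is slightly under 1.5-fold. By this rule 4 of the 40 carriers were ventral-enriched (10% of them, against 9.85% of all tested genes and 10.3% of the protein-coding ones). The dorsal-enriched carriers were 3 (7.5%, against 15.7% and 11.4%). Of these, Slc25a36 was under 1.5-fold by its ratio of mean CPM plus 1, and Slc25a47 passed the filter through Dorsal libraries alone. By the adjusted p alone, 8 were higher in Ventral (20%, against 14.6% of all and 16.1% of protein-coding genes). Higher in Dorsal libraries were 4 (10%, against 19.0% and 15.4%). The share of ventral-enriched carriers was thus close to that of genes at large. Over all 40, 28 were lower in Dorsal (70%, against 50.4% of all tested genes and 53.3% of the protein-coding ones), and the median log2 fold change, always given as dorsal over ventral, was -0.15 against -0.0044 for all genes and -0.041 for protein-coding genes. With a correction for GC content and length the median of the carriers was -0.067 and that of all genes 0.039.

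**Figure D2:**
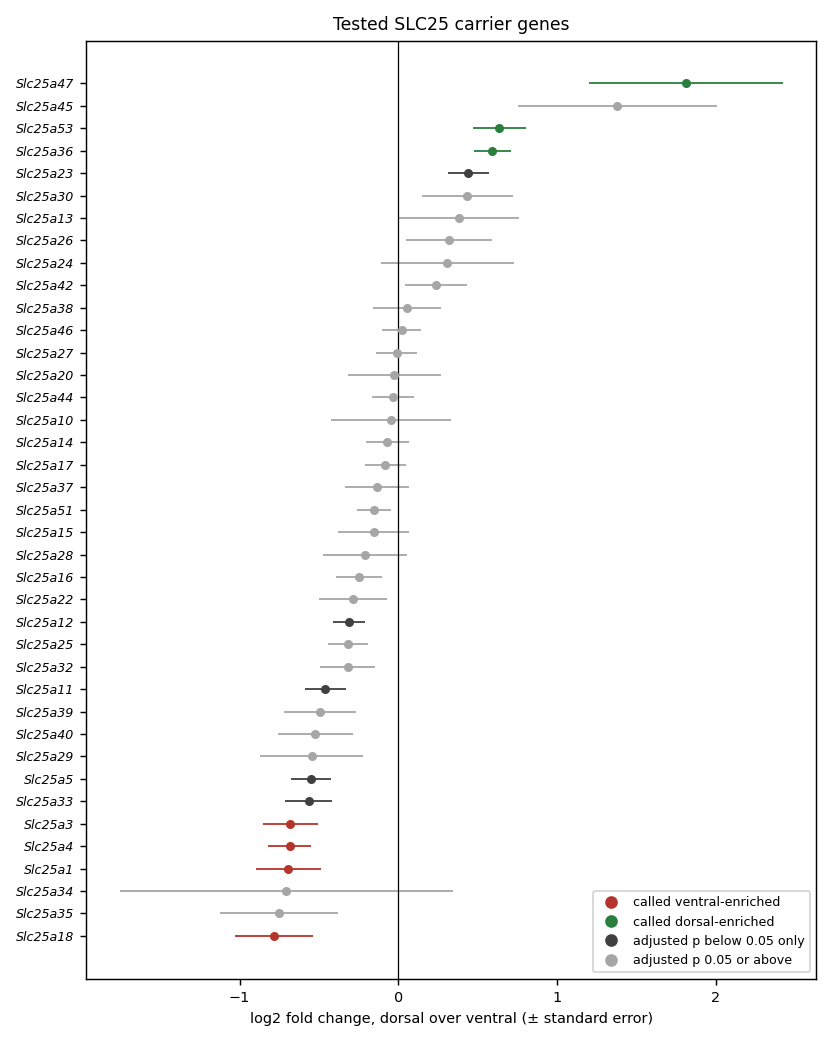
Log2 fold change (dorsal over ventral) of 39 of the 40 tested carriers with its standard error, ordered by size; red marks the 4 called ventral-enriched, green the 3 called dorsal-enriched, black those with an adjusted p below 0.05 only and grey the others. Of the points, 27 lie left of 0, and Slc25a47 has the largest fold change and a wide error.

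Among the carriers of ATP synthesis, Slc25a4 (chromosome 8, 46206797 to 46211284) and the phosphate carrier Slc25a3 (chromosome 10, 91116574 to 91124059) were ventral-enriched. Slc25a4 was at 1918, 1515, 1373, 1804 and 1754 CPM in the Dorsal and at 3689, 2651, 2563, 2279 and 2243 CPM in the Ventral libraries, in the order of the replicate numbers. The groups did not overlap, and Ventral replicate 1 stood above the other Ventral libraries. The log2 fold change was -0.68 (SE 0.135, edgeR adjusted p = 0.00226), a level 1.6-fold higher in Ventral. Without Ventral replicate 1 it was -0.54 (adjusted p = 0.00293), under the fold threshold.

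Slc25a3 was at 352.7, 313.9, 260.3, 303.8 and 308.6 CPM in Dorsal libraries and at 785.0, 406.2, 438.1, 391.3 and 441.3 CPM in Ventral. Every Ventral library exceeded every Dorsal one, and Ventral replicate 1 was again the highest. The log2 fold change of -0.68 (SE 0.172, edgeR adjusted p = 0.00907) became -0.45 (adjusted p = 0.00618) without that library, which ended the call by its fold and not by its p. The other libraries left out in turn kept both calls. A pseudogene resembles Slc25a3 and was below the filter.

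Slc25a5, the adenine nucleotide carrier of most dividing tissues, was at 92.9 to 106 CPM in the Dorsal and 104 to 171 CPM in the Ventral libraries. Ventral replicate 3 (104.1 CPM) was the library that overlapped the Dorsal range. Its log2 fold change was -0.55 (SE 0.126, edgeR adjusted p = 0.00507), short of the fold threshold, and without Ventral replicate 3 it was called ventral-enriched. The value is uncertain because 8 pseudogenes resemble Slc25a5 over at least 200 bases and can share its reads. Of these, Gm5529 alone passed the filter, at 0.411 against 0.851 CPM in the Dorsal and Ventral means.

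The ratio of Slc25a4 to Slc25a5 was compared within each library, as the log2 ratio of counts per kb. It was 3.55 ± 0.173 in the Dorsal and 3.69 ± 0.355 in the Ventral group (SD over 5 libraries each), a difference of -0.14 (SE 0.176) that did not pass the two-sided exact permutation test (p = 0.437). Slc25a4 thus formed 92.1% of the pair in Dorsal and 92.7% in Ventral. This was the first of 8 pairs of related carriers compared, and 0.00794 is the smallest p that 5 against 5 libraries allow.

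Of the ATP-Mg/phosphate carriers, calcium-regulated proteins that adjust the matrix adenine nucleotide pool, 3 were tested and none was called. Slc25a23 was at 285.9, 336.4, 442.0, 346.6 and 341.5 CPM in the Dorsal and at 231.9, 225.5, 245.8, 263.0 and 323.6 CPM in the Ventral libraries. It was higher in Dorsal (log2 fold change 0.44, SE 0.128, edgeR adjusted p = 0.0181), but the ranges overlapped through Ventral replicate 5 and Dorsal replicate 1. Slc25a25 lay on the other side, at 25.4 to 30.3 CPM in Dorsal against 31.6 to 39.5 CPM in Ventral libraries. Its groups did not overlap, while the log2 fold change of -0.32 (SE 0.126) missed the threshold of edgeR's test (adjusted p = 0.0654). Slc25a24 was at 1.56 to 5.89 and 1.18 to 5.27 CPM (log2 fold change 0.31, SE 0.419, adjusted p = 0.599).

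Within the libraries, the log2 ratio of Slc25a23 to Slc25a25 was 4.25 ± 0.279 in the Dorsal and 3.49 ± 0.303 in the Ventral group (SD over 5 libraries each; exact permutation test, p = 0.00794, 0.0317 after adjustment over the 8 pairs). The difference was 0.77 (SE 0.184), with no overlap between the 5 Dorsal values of 3.96 to 4.69 and the 5 Ventral values of 3.08 to 3.92. Slc25a23 made up 95.0% of the pair per kb in Dorsal and 91.7% in Ventral libraries. A difference of 0.65 to 0.88 remained when each library was left out in turn. Corrected for GC content and length, it was 0.999, still without overlap (exact permutation test, p = 0.00794), and the p adjusted over the 8 pairs was 0.0635. Slc25a23 shares 3.17% and Slc25a25 4.82% of its exonic bases with other genes.

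The pyrimidine nucleotide carriers Slc25a33 and Slc25a36, which bring nucleotides into mitochondria for the synthesis of their DNA and RNA, differed in opposite directions. Slc25a36 (chromosome 9, 97074961 to 97111157) was at 124.5, 161.1, 145.4, 136.8 and 147.6 CPM in the Dorsal and at 87.0, 94.5, 117.9, 93.4 and 84.1 CPM in the Ventral libraries. It was dorsal-enriched (log2 fold change 0.59, SE 0.116, edgeR adjusted p = 0.00202) and was the 1 carrier whose Dorsal libraries all lay above the Ventral ones, as for 9.81% of all tested genes. Its ratio of mean CPM plus 1, 0.58 on the log2 scale, sat at the threshold, and leaving out any of Dorsal replicates 2, 3 and 5 or Ventral replicates 1, 2, 4 and 5 ended the call, with log2 fold changes of 0.55 to 0.68 and adjusted p-values of 0.00063 to 0.0079 over all 10 omissions.

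Slc25a33 (chromosome 4, 149744036 to 149774277) was at 28.5, 19.8, 19.4, 25.2 and 27.7 CPM in the Dorsal and at 41.0, 34.2, 33.2, 33.0 and 34.5 CPM in the Ventral libraries. The groups did not overlap, and Ventral replicate 1 was the highest. Its log2 fold change of -0.56 (SE 0.148, edgeR adjusted p = 0.0110) fell short of the fold threshold and passed it without Dorsal replicate 1. An antisense gene, Gm13068, and Slc25a33 share 14.9% of the exonic bases of Slc25a33. Gm13068 was below the filter, and whether the counting used strand is not given in the sources used here, so reads from the pair cannot be told apart.

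The log2 ratio of Slc25a33 to Slc25a36 moved more than that of any other pair. It was 0.221, -0.679, -0.556, -0.0947 and -0.0678 in Dorsal and 1.26, 0.883, 0.519, 0.845 and 1.06 in Ventral libraries, without overlap. The difference was -1.15 (SE 0.207; exact permutation test, p = 0.00794, 0.0317 over the 8 pairs). Slc25a33 formed 46.0 ± 6.38% of the pair per kb in the Dorsal and 65.2 ± 4.34% in the Ventral group (SD over 5 libraries each). After a correction for GC content and length the difference was -0.80 (exact permutation test, p = 0.0397, 0.159 over the 8 pairs), the groups overlapped, and the difference no longer passed.

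**Figure D3:**
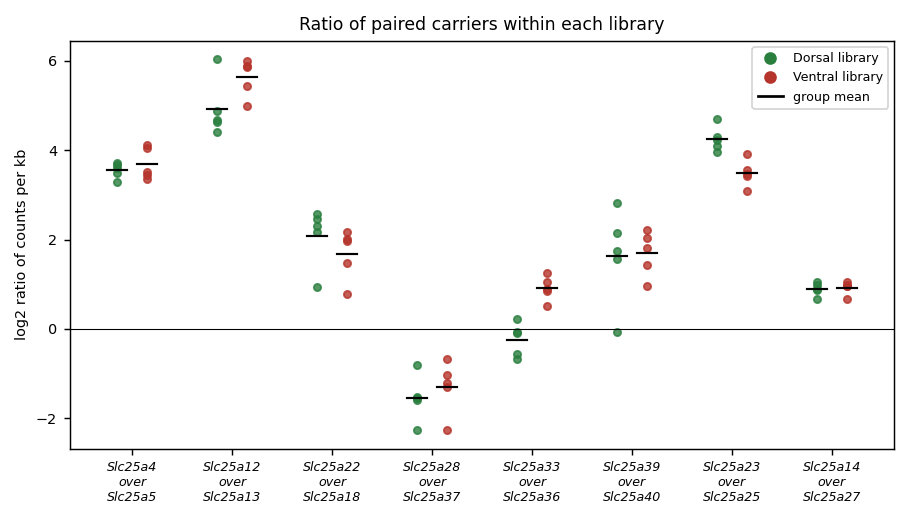
Log2 ratio of counts per kb for 8 pairs of related carriers in each of the 5 Dorsal (green) and 5 Ventral libraries (red), with the group means as bars. The values of Slc25a33 over Slc25a36 and of Slc25a23 over Slc25a25 do not overlap between the groups, while those of the other 6 pairs do.

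Of the 5 carriers of the malate-aspartate shuttle and of glutamate, Slc25a11, Slc25a12 and Slc25a18 were lower in Dorsal by the adjusted p, and Slc25a13 and Slc25a22 did not pass. After the correction for GC content and length, Slc25a11 and Slc25a12 no longer passed (edgeR adjusted p = 0.0965 and 0.0777). Slc25a12, the aspartate-glutamate carrier of neurons, was at 124.8, 107.9, 121.6, 118.2 and 125.7 CPM in the Dorsal and at 159.0, 167.2, 126.8, 141.5 and 145.8 CPM in the Ventral libraries. The ranges came close, at 125.7 and 126.8 CPM, without overlap. The log2 fold change was small, at -0.31 (SE 0.102, edgeR adjusted p = 0.0314), and the adjusted p rose above 0.05, to as much as 0.0758, without any library other than Dorsal replicate 1 or Ventral replicate 3. Slc25a13, the form of liver and kidney, was low, at 0.94 to 2.93 CPM in Dorsal and 1.10 to 2.36 CPM in Ventral (log2 fold change 0.38, SE 0.377, adjusted p = 0.455). The log2 ratio of Slc25a12 to Slc25a13 was 4.93 ± 0.640 and 5.63 ± 0.419 (SD over 5 libraries each), a difference of -0.70 (SE 0.342) that did not pass (exact permutation test, p = 0.0952), and without Dorsal replicate 1 it was -0.98 (exact permutation test, p = 0.0159).

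Slc25a11, the oxoglutarate-malate exchanger of the shuttle, was at 68.1 to 89.2 CPM in the Dorsal and 85.2 to 121 CPM in the Ventral libraries. The groups overlapped through Dorsal replicate 1 and Ventral replicate 1, and the log2 fold change was -0.46 (SE 0.127, edgeR adjusted p = 0.0143; 0.0506 without Dorsal replicate 5). The 4 soluble enzymes of the shuttle were all ventral-enriched, as were 9.85% of all tested genes. None overlapped between the groups, as for 8.36% of all tested genes with Ventral higher. They were the aspartate aminotransferases Got1 (150.1 against 229.3 CPM, log2 fold change -0.61) and Got2 (39.0 against 60.5 CPM, -0.64), and the malate dehydrogenases Mdh1 (413 against 670.3 CPM, -0.70) and Mdh2 (145.8 against 270.5 CPM, -0.89), with edgeR adjusted p-values of 0.000083 to 0.0031. These 4 enzymes were thus called where the shuttle carriers Slc25a11 and Slc25a12 missed the fold threshold and Slc25a13 did not pass the test.

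The glutamate carriers import glutamate with a proton. Slc25a18 (chromosome 6, 120773578 to 120794336), a form known from astrocytes, was at 4.52, 3.96, 5.52, 3.42 and 4.40 CPM in the Dorsal and at 6.16, 6.60, 9.88, 6.2 and 8.59 CPM in the Ventral libraries. It was ventral-enriched without overlap (log2 fold change -0.78, SE 0.248, edgeR adjusted p = 0.0266). Its direction was opposite to the summed astrocyte markers, a sum led by Slc1a2 (1774 against 869.9 CPM). Of the 10, 5 were called dorsal-enriched (50%, against 15.7% of all tested genes) and Aldh1l1 ventral-enriched (10%, against 9.85%). Aldoc was also higher in Ventral by the test (-0.56, edgeR adjusted p = 0.00532), and Fgfr3 lay below 0 (-0.28, adjusted p = 0.572). The part of astrocytes in the difference of Slc25a18 was not tested. The call of Slc25a18 was lost without Dorsal replicate 4 (adjusted p = 0.0820), Dorsal replicate 5 (0.0628), Ventral replicate 5 (0.0809) or, by its fold, Ventral replicate 3.

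Slc25a22, the glutamate carrier of neurons, was at 27.2 to 77.8 CPM in the Dorsal and 53.0 to 93.0 CPM in the Ventral libraries, with Dorsal replicate 1 far below the other Dorsal libraries, at 27.2 CPM (log2 fold change -0.28, SE 0.214, edgeR adjusted p = 0.323). The log2 ratio of Slc25a22 to Slc25a18 was 2.08 ± 0.662 and 1.68 ± 0.571 (SD over 5 libraries each; difference 0.40, SE 0.391; exact permutation test, p = 0.317). Without Dorsal replicate 1 this difference was 0.69 (exact permutation test, p = 0.0159, the smallest p that 4 against 5 libraries allow).

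Slc25a1 (chromosome 16, 17925223 to 17928219), the citrate carrier that supplies cytosolic acetyl-CoA for lipid synthesis, was at 6.30, 7.86, 6.82, 6.19 and 7.07 CPM in the Dorsal and at 8.04, 12.5, 11.2, 11.1 and 12.9 CPM in the Ventral libraries. The groups did not overlap, and the log2 fold change was -0.69 (SE 0.204, edgeR adjusted p = 0.0190). The call was lost without Dorsal replicate 4 (adjusted p = 0.0568) or Ventral replicate 5 (0.0626). The dicarboxylate carrier Slc25a10 was at 0.47 to 5.11 and 2.64 to 3.42 CPM (log2 fold change -0.043, SE 0.378). With these, 7 carriers had all Ventral libraries above all Dorsal ones, namely Slc25a1, Slc25a3, Slc25a4, Slc25a12, Slc25a18, Slc25a25 and Slc25a33. They were 17.5% of the 40, against 8.36% of all tested genes and 9.58% of the protein-coding ones.

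**Figure D4:**
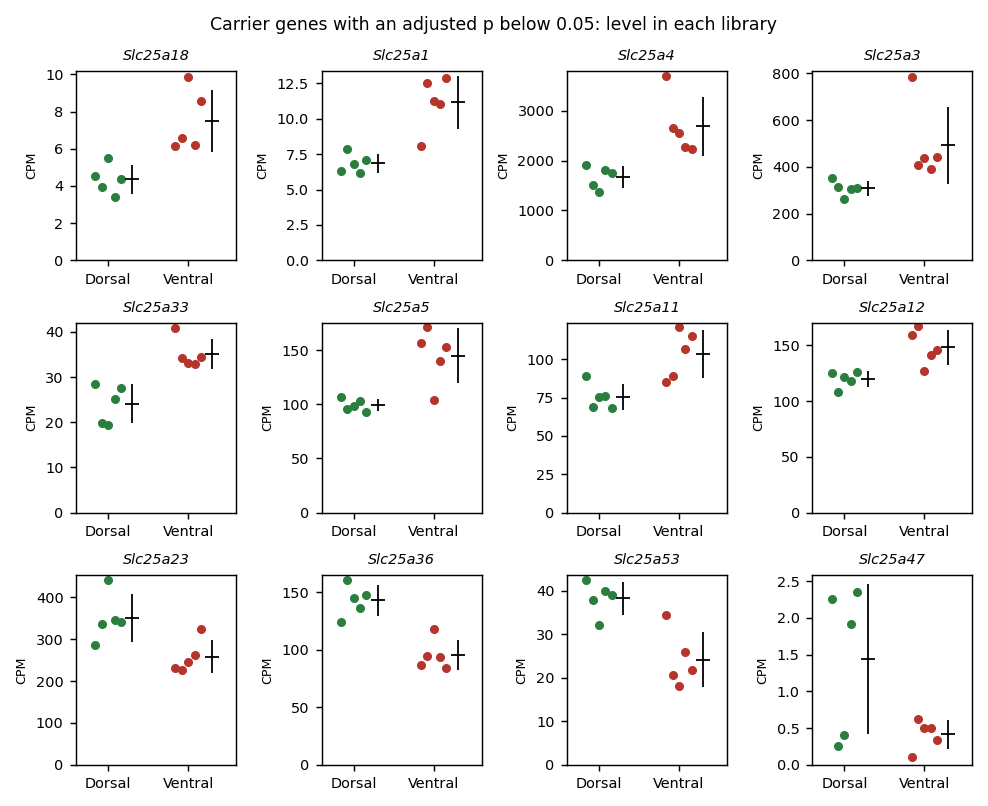
Level in CPM of the 12 carriers with an adjusted p below 0.05 in each Dorsal (green) and Ventral library (red), plotted from left to right by replicate number, with the group mean and SD beside the points. Ventral replicate 1 is the highest point for Slc25a4, Slc25a3 and Slc25a33, and the Dorsal libraries of Slc25a47 split into high and low values.

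The other dorsal-enriched carriers were Slc25a53 and Slc25a47, whose substrates are less certain. Slc25a53 (chromosome X, 136981116 to 137038302) was at 42.3, 37.9, 32.1, 39.8 and 39.0 CPM in the Dorsal and at 34.3, 20.7, 18.1, 26 and 21.7 CPM in the Ventral libraries. Ventral replicate 1 lay inside the Dorsal range, and the other Ventral libraries lay below it (log2 fold change 0.64, SE 0.169, edgeR adjusted p = 0.0115). The call was lost without Ventral replicate 3, by its fold.

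Slc25a47, a carrier known from liver (chromosome 12, 108836046 to 108856815), was at 2.26, 0.260, 0.409, 1.92 and 2.36 CPM in the Dorsal and at 0.111, 0.616, 0.507, 0.506 and 0.330 CPM in the Ventral libraries. Dorsal replicates 2 and 3 fell within the Ventral range, and several values were near the level of 3 counts. It passed the filter only through Dorsal replicates 1, 4 and 5, the libraries in which it is high, and its call is given as a description and supports nothing about the family. The call (log2 fold change 1.82, SE 0.611, edgeR adjusted p = 0.0285) was lost when Dorsal replicate 1, 4 or 5 or Ventral replicate 1, 4 or 5 was left out, with adjusted p-values of up to 0.0875, and DESeq2 did not make it (adjusted p = 0.0589). Slc25a45 showed a like split, at 0.195 to 5.11 CPM in Dorsal against 0.528 to 1.10 CPM in Ventral (log2 fold change 1.38, SE 0.627, adjusted p = 0.10), and was called dorsal-enriched without Dorsal replicate 1 or 2. Slc25a35, which shares 31.3% of its exonic bases with Rangrf, was at 1.96 to 3.48 and 1.18 to 7.82 CPM (-0.75, SE 0.371, adjusted p = 0.131), and was called ventral-enriched without Ventral replicate 3.

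The other groups of carriers held no call. Slc25a20, which brings acylcarnitines into the matrix for fatty acid oxidation, was at 3.11, 6.17, 10.2, 5.95 and 6.44 CPM in the Dorsal and at 6.10, 4.58, 9.79, 5.12 and 7.55 CPM in the Ventral libraries. Its groups overlapped, and the log2 fold change of -0.024 had an interval of -0.61 to 0.57 (2 SE on each side; edgeR adjusted p = 0.961), so that a change within these bounds could not be detected. The acyltransferases that work with it differed among themselves. Cpt1a, which starts the entry of fatty acids, was dorsal-enriched (6.57 against 2.95 CPM, log2 fold change 1.14, adjusted p = 0.00407). Cpt2 of the inner membrane (0.575 against 3.86 CPM, -2.62, adjusted p = 0.00222) and the peroxisomal Crot (12 against 21.9 CPM, -0.87, adjusted p = 0.00479) were ventral-enriched. Of the Dorsal libraries, replicate 2 alone (1.949 CPM) had Cpt2 above 1 CPM, short of the 2 libraries that the filter asks. Cpt2 thus passed through the Ventral libraries, where it is high, and its call is given as a description. Cpt1a, Cpt2 and Crot had no overlap between the groups, as for 9.81% of all tested genes with Dorsal higher and 8.36% with Ventral higher. Cpt1b was listed at 0 in every library, and Cpt1c and Crat passed the filter without a difference past the test.

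The iron carriers of haem and iron-sulfur cluster synthesis, Slc25a28 (4.23 to 13.6 against 7.94 to 10.2 CPM) and Slc25a37 (29.8 to 38.5 against 26.1 to 61.1 CPM), had log2 fold changes of -0.21 (SE 0.263) and -0.13 (SE 0.200). Their log2 ratio differed by -0.25 (SE 0.348; exact permutation test, p = 0.476). Slc25a39, which imports glutathione, was at 7.90 to 24.8 against 20.2 to 32.2 CPM, and Slc25a40, its relative, at 10.1 to 25.5 against 18.6 to 34.2 CPM. Their log2 fold changes of -0.49 (SE 0.225, edgeR adjusted p = 0.103) and -0.52 (SE 0.237, adjusted p = 0.102) missed the threshold, which Slc25a39 passed with the replicate number as a block (-0.56, adjusted p = 0.0342), and their log2 ratio differed by -0.053 (SE 0.527; exact permutation test, p = 0.937).

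The uncoupling-protein-like carriers Slc25a14 (31.4 to 40.1 against 28.2 to 40.8 CPM), Slc25a27 (26.3 to 34.9 against 28.2 to 34.2 CPM) and Slc25a30 (29.6 to 91.5 against 26.6 to 73.3 CPM) had log2 fold changes of -0.068, -0.0096 and 0.44 with adjusted p-values of 0.258 to 0.964. The log2 ratio of Slc25a14 to Slc25a27 was the steadiest of the 8 pairs, at 0.893 ± 0.144 and 0.927 ± 0.147 (SD over 5 libraries each; difference -0.034, SE 0.0922; exact permutation test, p = 0.698). The 7 tested coenzyme and cofactor carriers, among them Slc25a51 for NAD+ (163 to 204 against 179 to 228 CPM), Slc25a17 of the peroxisome (48.2 to 70.4 against 55.5 to 70.1 CPM) and Slc25a32 for folate and flavin (35.9 to 69.3 against 47.8 to 79.9 CPM), had log2 fold changes of -0.32 to 0.32 and none with an adjusted p below 0.05. Slc25a46, second in per-kb level in Dorsal and behind Slc25a4, Slc25a3 and Slc25a5 in Ventral, was at 324 to 499 CPM in the Dorsal and 359 to 439 CPM in the Ventral libraries, with a log2 fold change of 0.022 and an interval of -0.22 to 0.27. The ornithine and basic amino acid carriers Slc25a15 and Slc25a29 were at -0.16 and -0.54, the glycine carrier Slc25a38 at 0.057 and the branched-chain amino acid carrier Slc25a44 at -0.033.

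Among proteins that act beside the carriers, 37 of 39 chosen genes were tested. Of these, 7 were ventral-enriched (18.9%, against 9.85% of all tested genes and 10.3% of the protein-coding ones). Among the 7 is Cpt2, which reached the filter through the Ventral libraries, where it is high, and is counted as a description only. The 1 dorsal-enriched gene made up 2.7% (against 15.7% and 11.4%). The median log2 fold change, with Cpt2 included, was -0.29, against -0.0044 for all genes and -0.041 for protein-coding ones. The 39 genes were chosen with earlier results of these data known, and 4 of the 7 are the shuttle enzymes. These shares and the median are thus a description and support nothing about the partners as a set. Besides the shuttle enzymes and acyltransferases, Vdac1, the main porin of the outer membrane, was ventral-enriched (368.1 against 626.0 CPM, -0.77, edgeR adjusted p = 0.000076), and Vdac2 (-0.56, adjusted p = 0.00135) and Vdac3 (-0.58, adjusted p = 0.0151) were higher in Ventral by the test alone. Of the pyruvate carrier subunits, Mpc2 was at 217.7 against 315.2 CPM (-0.53, adjusted p = 0.00303) and Mpc1 at 2.62 against 3.63 CPM (-0.42, adjusted p = 0.281). Of 7 calcium uniporter genes, the regulators Micu3 (-0.32, adjusted p = 0.0243) and Smdt1 (-0.40, adjusted p = 0.0155) were higher in Ventral, and the pore Mcu was at 53.9 against 49.2 CPM (0.15, adjusted p = 0.612). Mcur1 lay on the other side without passing (41.0 against 28.2 CPM, 0.55, adjusted p = 0.0574). Fold changes below 0 were 3 of the 7 (42.9%, against 50.4% of all tested genes). Of 5 sideroflexins, serine transporters of another fold, Sfxn3 passed (-0.44, adjusted p = 0.0111), and of 7 import factors that insert carriers into the membrane, Timm10 (-0.56, adjusted p = 0.0268). The family members under other symbols that were tested, Ucp2, Ucp3, Mtch1 and Mtch2, gave 0 calls and 0 adjusted p-values below 0.05 (0 of 4 also at an unadjusted p below 0.05), and Ucp1 was below the filter.

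Several measures of the libraries moved with the groups, and their part in these differences was not tested. Read pairs on no gene made up 27.0 ± 5.09% in the Dorsal and 14.4 ± 3.0% in the Ventral group (SD over 5 libraries each; exact permutation test, p = 0.00794), and mitochondrially encoded mRNA was at 2968 ± 316 against 790 ± 307 CPM (exact permutation test, p = 0.00794), in the opposite direction to Slc25a4 and Slc25a3. A correction for GC content and length, fitted per library, left Slc25a4 (-0.64) and Slc25a3 (-0.73) ventral-enriched with an edgeR adjusted p of 0.00495 and 0.00254. It ended the calls of Slc25a1 (-0.45, adjusted p = 0.0973), Slc25a18 (-0.66, adjusted p = 0.0489, by its fold), Slc25a36 (0.39, adjusted p = 0.0205) and Slc25a53 (0.54, adjusted p = 0.0190). It brought in Slc25a23 as dorsal-enriched (0.79, adjusted p = 0.000183) and Slc25a40 as ventral-enriched (-0.90, adjusted p = 0.00458). Of the 12 carriers with an adjusted p below 0.05, 9 kept one after the correction. Those that lost it were Slc25a1, Slc25a11 (-0.30, adjusted p = 0.0965) and Slc25a12 (-0.25, adjusted p = 0.0777). Slc25a32 (-0.50, adjusted p = 0.0155) and Slc25a42 (0.59, adjusted p = 0.0162) entered beside Slc25a40.

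**Figure D5:**
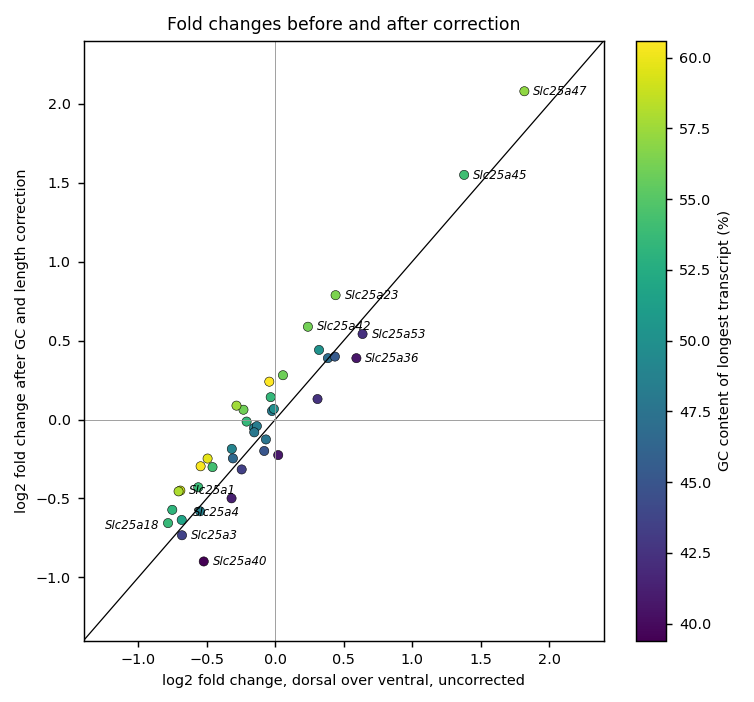
Log2 fold change (dorsal over ventral) of the 40 tested carriers without (horizontal) and with (vertical) the correction for GC content and length, coloured by the GC content of the longest transcript in percent; the line marks equal values. GC-rich carriers such as Slc25a23 lie above the line and GC-poor ones such as Slc25a40 and Slc25a36 below it.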

How the data were processed

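The authors amplified the TRAP RNA of each pool with the Ovation kit, made TruSeq libraries, sequenced paired 50 bp ends, aligned them to GRCm38 with STAR 2.5.2b and used HTSeq 0.7.2 to count the read pairs on each Ensembl gene. These raw counts were deposited, not normalized, as 1 file per library; the annotation release and strand setting are not given in the sources used here. Symbols, biotypes, coordinates and exonic lengths came from GENCODE M21, which matched 54809 of 54838 identifiers.

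The fit used edgeR 4.0.16 in R 4.3.3: CPM above 1 in at least 2 libraries, TMM scaling, quasi-likelihood test of 5 Dorsal against 5 Ventral libraries, Benjamini-Hochberg adjustment over 16806 genes, and a call at an adjusted p below 0.05 where the log2 ratio of the group means of CPM, each plus 1, exceeded 0.58 in size. Rows for read pairs on no gene stayed out of library sizes (11.6 to 33.9% of read pairs). Standard errors are the log2 fold change over the square root of F. CPM values use TMM-scaled library sizes. Pair ratios added 0.5 to the counts and were tested by two-sided exact permutation. Copies were sought with BLAST 2.17.0 (at least 90% identity over 200 bases). The fit was tested on simulated data. The values of 1 tested carrier are counted in the totals and not reported here.

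The carriers, partner and marker lists and tests were chosen with earlier results of these data known. Any carrier could be named; full values were given for called carriers and for members of the nucleotide, phosphate, aspartate-glutamate, glutamate and acylcarnitine groups and the 8 pairs, and partners were named where called or, in lists without a call, at an adjusted p below 0.05, others being named beside them. Marker lists not given in the text summed to 28.1 to 43.5 against 20.6 to 43.7 CPM (microglia), 13.4 to 39.3 against 11.4 to 56.6 (endothelial), 2.82 to 9.36 against 4.33 to 7.78 (red blood cell), 343 to 410 against 168 to 366 (granule cell) and 251 to 346 against 267 to 357 (pyramidal cell) in Dorsal and Ventral libraries. Replicates differed by more than counting noise (chi-square per degree of freedom 4.36 to 45.1) and were each counted once; this does not show that they are separate material. The alternatives were other scalings and filters, DESeq2 1.42.0, the likelihood-ratio test, other thresholds, the replicate block, GC and length offsets (mgcv 1.9.3), protein-coding genes alone, mitochondrial genes left out, the dispersions of edgeR 3 (added after seeing the data) and each library left out.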

Additional observations from a re-analysis of the deposited data

Results flagged for a closer look

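Each carrier's level was screened in each group of 5 libraries for a highest or lowest library whose gap to its neighbour took up more than 0.71 of the group's range (Dixon's criterion). Of 80 groups screened, 10 met it, where chance alone gives about 1 in 20, or 4. In Ventral replicate 1, Slc25a3 was at 785.0 CPM (next 441.3), Slc25a4 at 3689 CPM (next 2651) and Slc25a33 at 40.95 CPM (next 34.51), each the highest of its group. In Ventral replicate 2, Slc25a25 was at 39.53 CPM (next 33.4) and Slc25a42 at 26.68 CPM (next 18.41), and in Ventral replicate 3, Slc25a16 was at 276.4 CPM (next 178.9). Dorsal replicate 1 was far below its group for Slc25a22, at 27.19 CPM (next 63.9), and for Slc25a39, at 7.903 CPM (next 21.14). Slc25a34 was at 1.689 CPM in Dorsal replicate 2 (next 0.1882), and Slc25a35 at 1.964 CPM in Dorsal replicate 5 (next 3.053). The fold changes of Slc25a3 and Slc25a4 without Ventral replicate 1 were -0.449 and -0.543.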

How the results depend on the processing

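Slc25a4 and Slc25a3 kept their call in 25 of 26 alternatives each, Slc25a53 in 22 of 26, Slc25a1 in 20 of 26, Slc25a18 in 18 of 26, Slc25a36 in 17 of 26 and Slc25a47 in 16 of the 25 that tested it. The count of ventral-enriched carriers was 2 without the filter on low counts (adjusted p 0.0601 for Slc25a1 and 0.066 for Slc25a18) and 2 at an adjusted p below 0.01, 8 without a fold threshold and 2 to 5 with a library left out, and that of dorsal-enriched carriers 1 at an adjusted p below 0.01 and 1 to 3 with a library left out. At an adjusted p below 0.01, 1498 and 897 of all genes were called in place of 2636 and 1655, by construction. The median log2 fold change was -0.0673 with GC and length correction, -0.0878 with the replicate block as well, and -0.221 to -0.107 with a library left out. With the replicate block alone, 3 and 4 carriers were called as before; same-numbered libraries did not deviate together (correlations -0.0317 to 0.0695, 2 of 5 best with their own number), and the adjusted p was 0.0626 for Slc25a12 and 0.0342 for Slc25a39.

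Among pair ratios, Slc25a12 over Slc25a13 was -0.662 (exact permutation test, p = 0.0397) with a pseudocount of 5 and -0.977 to -0.571 with a library left out, Slc25a22 over Slc25a18 0.175 to 0.69, Slc25a14 over Slc25a27 -0.0979 to 0.0207, and Slc25a39 over Slc25a40 0.612 with GC correction and -0.348 to 0.372 with a library left out. Log2 fold changes near 0 changed sign: Slc25a20 was 0.00477, 0.016 and 0.00404 and Slc25a27 0.0188, 0.0301 and 0.0166 with the size factors of DESeq2, with upper-quartile factors and with protein-coding genes alone. Slc25a27 was also 0.00523 with total counts, 0.0133 with the stricter filter and 0.0178 with DESeq2, and Slc25a44 0.00728 with upper-quartile factors. With GC correction, without and with the block, Slc25a10 was 0.24 and 0.153, Slc25a20 0.0542 and 0.0115, Slc25a22 0.0882 and 0.0562, Slc25a27 0.0675 and 0.0554, Slc25a44 0.142 and 0.145, and Slc25a46 -0.225 and -0.232. With a library left out, Slc25a10 was -0.316 to 0.169, Slc25a17 -0.14 to 0.000473, Slc25a20 -0.249 to 0.117, Slc25a27 -0.0542 to 0.0552, Slc25a37 -0.224 to 0.0839, Slc25a38 -0.022 to 0.208, Slc25a44 -0.0917 to 0.0491 and Slc25a46 -0.0583 to 0.101. Beyond these constructions the cause was not tested. Depth limits carriers under about 2 CPM, such as Slc25a34, Slc25a13 and Slc25a47.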
